A study of Mus musculus with 8 samples.

Results

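Cxcl12, Cxcr4 and Ackr3 make up the Cxcl12 chemokine axis, and their levels were followed in the cerebral cortex of mouse embryos with and without a conditional deletion of Upf2. The 3 genes were taken by name from the 55487 rows of the deposited table, and all 3 passed the filter that left 16573 genes to be tested. RNA of the cortex at E18.5, shortly before birth, was sequenced in 8 libraries, 4 from controls and 4 from mutants, which the labels call Emx1-Upf2cKO and which are called Upf2cKO here. Mutants were Upf2 fl/fl;Emx1-Cre. Controls 1, 3 and 4 were Upf2 fl/fl, control 2 was Upf2 fl/+, and no control carried Emx1-Cre, so an effect of the recombinase alone cannot be told apart from that of the deletion. Upf2 encodes a central component of nonsense-mediated decay, a surveillance pathway that removes mRNAs with early stop codons. Emx1-Cre recombines in dorsal telencephalic progenitors, from which the excitatory neurons and many glia of the cortex descend, whereas interneurons, blood vessels, meninges and microglia arise largely outside that lineage. Whether separate litters or animals stand behind the replicates is not stated, and p-values therefore describe the spread among these 8 libraries only.

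Cxcl12 is a secreted chemokine. In the developing cortex it comes chiefly from the meninges, and also from intermediate progenitors and blood vessels, and it guides Cajal-Retzius cells along the surface and migrating GABAergic interneurons through their tangential streams. Cxcr4 is its G protein-coupled receptor. Ackr3, also called Cxcr7, binds the same ligand without classical G protein signalling, takes it up for degradation, and is required for interneurons to stay responsive to it.

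The receptors were higher and the ligand was lower in Upf2cKO. Ackr3 rose 1.38-fold and Cxcr4 rose 1.15-fold, while Cxcl12 fell by 0.31 on the log2 scale, which is 1.24-fold lower. In the fit over all genes, 36.7% of tested genes were called higher and 26.3% lower, together 63.0%, so a call by itself was common in these libraries. All 4 mutant values lay above all 4 control values in 34.3% of tested genes and below them in 22.3%. Of the tested genes, 23.4% had a larger log2 change than Ackr3 and 37.3% a larger one than Cxcr4, and 16.6% had a lower one than Cxcl12.

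The depth estimated from low values was 96.6 M to 156.0 M gene-assigned reads in a library. That put 3205 to 6285 reads on Cxcl12, 3998 to 6446 on Cxcr4 and 2240 to 4442 on Ackr3 in each library. Counting error alone was then at most 2.11% of a value, less than the spread of CPM between libraries of a group. Markers of cortical neurons were abundant in every library, with a summed level of 12 upper-layer markers of 2198 to 3854 CPM. CPM is a gene's share of those reads, scaled to a fixed total. The targeted gene, Upf2, was higher in mutants (143 ± 7.84 CPM) than in controls (61.8 ± 4.58 CPM; SD, n = 4 each). Its value sums every exon, deleted or not, and so tests neither the recombination nor the sample labels. Upf2cKO 1 stood apart by its 339 CPM of the neuronal kinase gene Camk2a, which had 41.5 to 45.2 CPM in the other mutants. Among controls, control 1 had the most Camk2a, 96.7 CPM against 47.7 to 61.3 CPM in the others. Ttr, a choroid plexus transcript, reached 119 CPM in control 4 and 258 CPM in Upf2cKO 4, against 1.2 to 28.5 CPM in the other 6 libraries.

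The promoters of the members are shown as a description of their sequence, and a link to the changes in level was not tested. The 250 bases before each annotated start, 5′ to 3′ on the strand of the gene, are from RefSeq on GRCm38.p6, the build also named mm10. Capitals mark matches on either strand to TATAAA (the TATA box) and GGGCGG (the GC box, bound by Sp1 family factors). Of the 32851 promoter windows in the table, 12.4% held TATAAA and 32.7% held GGGCGG.
Cxcl12 promoter, chr6:117168285-117168534, plus strand: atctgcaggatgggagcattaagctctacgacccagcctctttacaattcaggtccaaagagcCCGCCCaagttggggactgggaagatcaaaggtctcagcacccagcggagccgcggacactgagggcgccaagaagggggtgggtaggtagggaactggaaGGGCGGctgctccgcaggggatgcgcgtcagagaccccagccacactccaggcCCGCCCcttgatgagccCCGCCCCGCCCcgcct
Cxcr4 promoter, chr1:128592300-128592549, minus strand: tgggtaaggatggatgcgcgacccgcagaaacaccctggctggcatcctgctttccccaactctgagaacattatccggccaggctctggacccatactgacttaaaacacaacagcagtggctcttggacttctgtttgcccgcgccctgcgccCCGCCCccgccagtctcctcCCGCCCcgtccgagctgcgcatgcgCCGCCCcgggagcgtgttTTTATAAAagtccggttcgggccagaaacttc
Ackr3 promoter, chr1:90203730-90203979, plus strand: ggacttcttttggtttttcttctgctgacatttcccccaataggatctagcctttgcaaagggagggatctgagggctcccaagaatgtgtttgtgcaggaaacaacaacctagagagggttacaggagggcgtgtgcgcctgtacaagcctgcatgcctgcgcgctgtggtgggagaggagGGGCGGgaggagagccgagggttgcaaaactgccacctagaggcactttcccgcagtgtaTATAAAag
The windows of Cxcr4 and Ackr3 each held a match to TATAAA, whose last base lay 25 bases before the start in Cxcr4 and 3 bases before it in Ackr3. In Cxcr4 TATAAA also matches on the reverse strand at an overlapping place. The window of Cxcl12 held no TATAAA and had 5 matches to GGGCGG, against 3 in Cxcr4 and 1 in Ackr3. A further pair of motifs was searched: CCAAT (33.8% of windows) matched once in Ackr3, and ACGTG, the core bound by hypoxia-inducible factors (16.6% of windows), matched in none of the 3. These matches are descriptions of letters, and nothing in these data measures what binds there.

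In the GENCODE M21 annotation of mm10, Cxcl12 (ENSMUSG00000061353) spans chr6:117168535-117181367 on the plus strand. Cxcr4 (ENSMUSG00000045382) spans chr1:128588199-128592293 on the minus strand, and Ackr3 (ENSMUSG00000044337) spans chr1:90203980-90216751 on the plus strand. None of the 3 overlaps another annotated gene (0 overlaps on either strand), so no read had to be divided with a neighbour. No transcript of the 3 genes is annotated as a target of nonsense-mediated decay (0 of 4 transcripts of Cxcl12, 0 of 2 of Cxcr4 and 0 of 2 of Ackr3), whereas 27.7% of the 14030 tested protein-coding genes have at least 1 such transcript. Cxcl12 has a transcript annotated with a retained intron. The deposited values are for whole genes, so isoforms were not measured.

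Cxcl12, the ligand, was the most variable of the members. Controls 1 to 4 held 46.9, 41.1, 39.9 and 39.9 CPM of it, and Upf2cKO 1 to 4 held 36.7, 30.0, 30.6 and 38.8 CPM. Control 1 was the highest library, Upf2cKO 2 and Upf2cKO 3 were the lowest, and all mutant values lay below all control values, although Upf2cKO 4 came within about 1 CPM of control 4. The control mean was 41.9 ± 3.34 CPM and the mutant mean 34.0 ± 4.37 CPM (SD, n = 4 each). The log2 change was -0.31 (SE 0.089, 95% interval -0.50 to -0.11, limma adjusted p = 0.0116). An exact two-sided permutation test gave p = 0.0286, the smallest that 70 arrangements can give.

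The fall of Cxcl12 depended on the scale. On TPM, which divides the values by gene length and rescales them to a common total, the groups overlapped. Controls held 22.9, 19.8, 19.5 and 19.1 TPM and mutants held 18.4, 15.03, 15.7 and 19.7 TPM, with Upf2cKO 4 above controls 3 and 4. There the log2 change was -0.24 with an interval of -0.47 to -0.024 (adjusted p = 0.0608 by limma, exact permutation p = 0.0857), where 36.7% of genes were called higher and 16.7% lower. After the libraries were centred on their median gene, the change was -0.42 (limma adjusted p = 0.000778). Without control 1, the library with the most Cxcl12, the change on CPM was -0.25 (limma adjusted p = 0.0345).

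Cxcr4, the signalling receptor, was higher in every mutant than in any control. Controls 1 to 4 had 39.3, 40.9, 36.8 and 40.4 CPM, and Upf2cKO 1 to 4 had 45.3, 47.4, 42.3 and 46.2 CPM. Replicate 3 was the lowest library of each group, and the lowest mutant exceeded the highest control by less than the SD of either group. The means were 39.3 ± 1.82 CPM (SD, n = 4) and 45.3 ± 2.18 CPM (SD, n = 4). The log2 change was 0.20 (SE 0.051, 95% interval 0.091 to 0.32, limma adjusted p = 0.00503, exact permutation p = 0.0286). On TPM the change was 0.26 (limma adjusted p = 0.000629). After centring on the median gene it was 0.089 and did not pass (limma adjusted p = 0.160), so the call for Cxcr4 rests on the scaling of the libraries.

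Ackr3, the scavenging receptor, had the largest change and the tightest replicates of the 3. Its level was 22.0, 22.8, 21.8 and 22.7 CPM for controls 1 to 4, and 29.9, 32.3, 29.7 and 31.8 CPM for Upf2cKO 1 to 4. The gap between the highest control and the lowest mutant was wider than the whole range of either group. The means were 22.3 ± 0.524 CPM (SD, n = 4) and 30.9 ± 1.30 CPM (SD, n = 4). The log2 change was 0.47 (SE 0.047, 95% interval 0.36 to 0.57, limma adjusted p = 8.55e-06, exact permutation p = 0.0286). It passed the test in all 18 alternative settings, with log2 changes from 0.35 to 0.53.

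**Figure D1:**
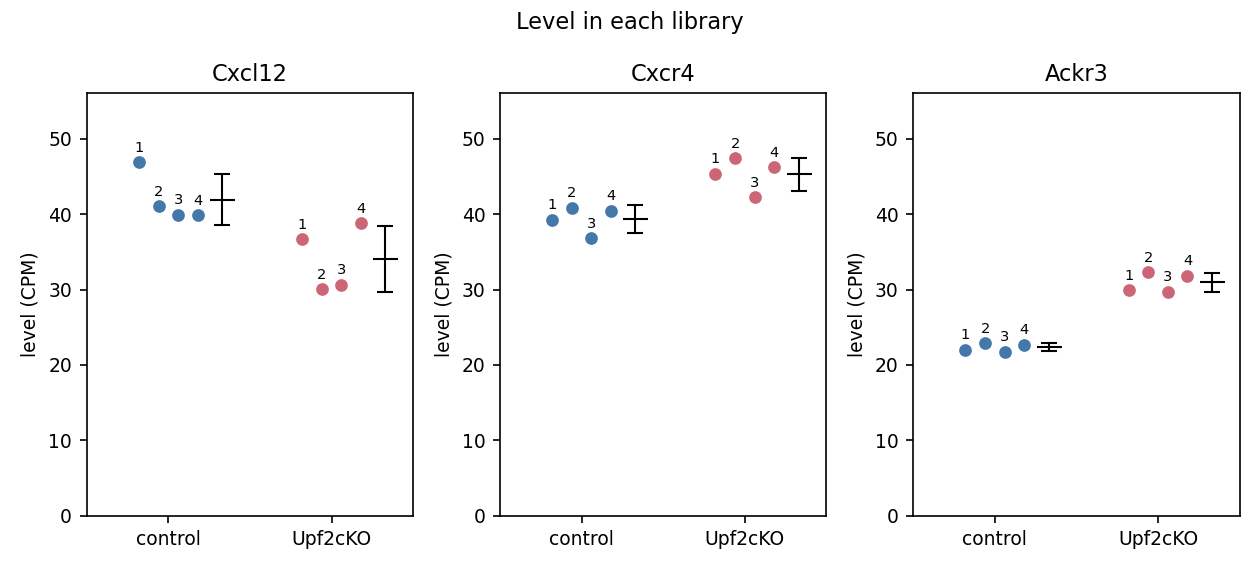
Level of Cxcl12, Cxcr4 and Ackr3 in CPM (vertical axis, from 0) in each of the 4 control and 4 Upf2cKO libraries, numbered by replicate, with the mean and SD of each group beside its points. Upf2cKO points lie below the controls for Cxcl12 (34.0 against 41.9 CPM on average) and above them for Cxcr4 (45.3 against 39.3) and Ackr3 (30.9 against 22.3).

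**Figure D2:**
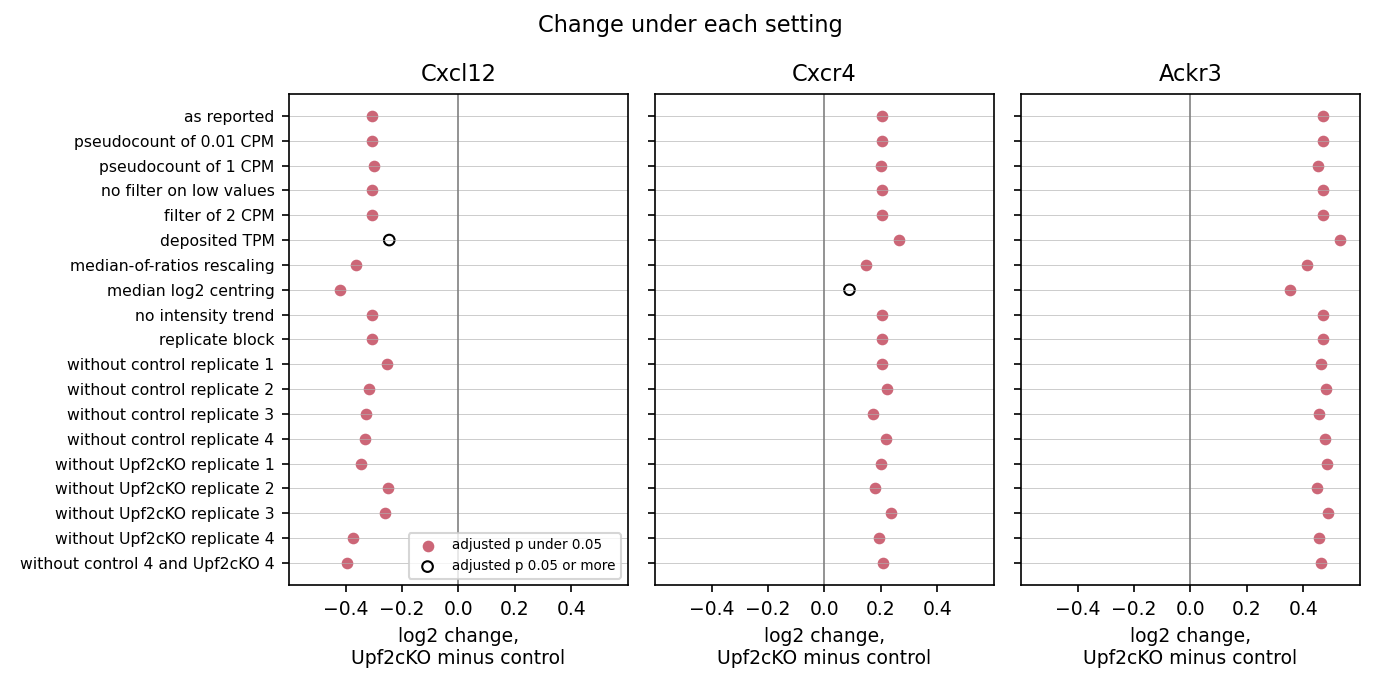
Log2 change, Upf2cKO minus control (horizontal axes), of each gene as reported and in 18 alternative settings (rows), with filled points for a limma adjusted p under 0.05 and open points otherwise. The open points are Cxcl12 on TPM (-0.24) and Cxcr4 after centring on the median gene (0.089), and no point changes sign.

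Within a library, the ratio of 2 members does not depend on the library total, so the ratios show whether the members changed by different amounts. The CPM ratio of Cxcr4 to Ackr3 was 1.69 to 1.79 in controls and 1.42 to 1.52 in mutants. It fell by 0.27 on the log2 scale, so that Ackr3 rose more than Cxcr4 (exact permutation p = 0.0286, two-sided, the same after Benjamini-Hochberg adjustment over the 3 ratios). The ratio of Cxcl12 to Cxcr4 was 0.986 to 1.19 in controls and 0.633 to 0.839 in mutants, a fall by 0.51 on the log2 scale. Relative to Ackr3, Cxcl12 had a ratio of 1.76 to 2.13 in controls and 0.930 to 1.23 in mutants, a fall by 0.78 on the log2 scale (0.775). In none of the 3 ratios did the groups overlap. The ratios of Cxcl12 to the receptors also had exact permutation p = 0.0286 each. That outcome was fixed beforehand, because on CPM Cxcl12 was lower and each receptor higher with no overlap, so it adds nothing to the member results. On TPM the 3 log2 differences were -0.27, -0.51 and -0.77. They had to be nearly the same, because within a library the scales differ for a ratio only by the fixed gene lengths.

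Levels of different genes are comparable only per length. On TPM, Cxcr4 was the highest of the members at 86.2 ± 3.26 TPM (SD, n = 4) in controls and 103.5 ± 4.24 TPM (SD, n = 4) in Upf2cKO. Ackr3 followed with 26.4 ± 0.360 and 38.2 ± 1.52 TPM, and Cxcl12 was the lowest with 20.3 ± 1.77 and 17.2 ± 2.22 TPM. No neighbours in that order overlapped within a group. The order of Cxcl12 and Ackr3 depends on the length used. The deposited TPM divides by the union of all annotated exons, which is 8176 bases for Cxcl12, 1808 for Cxcr4 and 3348 for Ackr3, whereas single coding transcripts of Cxcl12 are 1878 to 5627 bases long. Divided by the longest coding transcript of each gene, the controls held 29.5 ± 2.57 TPM of Cxcl12 and 28.8 ± 0.394 TPM of Ackr3 (SD, n = 4), which do not differ beyond their spread, and the mutants held 25.0 ± 3.22 and 41.7 ± 1.66 TPM. Divided by its shortest coding transcript, Cxcl12 in controls would stand at 88.5 TPM, beside Cxcr4 at 86.3 TPM over its longest.

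The RNA comes from whole cortex, so fewer cells of a type and less RNA per cell cannot be told apart, and the markers of the cells that make or receive Cxcl12 are given beside it. The counts of called markers are to be read against the 36.7% of all tested genes called higher and the 26.3% called lower. Of the 19 GABAergic interneuron markers, the cells that respond to Cxcl12 through Cxcr4 and Ackr3, 18 were higher and 1 was lower, with a median log2 change of 0.59, against 0.040 over all tested genes. Their summed level was 793.9 to 872 CPM in controls and 1088 to 1230 CPM in mutants. Dlx1 and Erbb4, the most abundant, rose from 139.7 to 205.2 CPM and from 96.7 to 157.9 CPM (limma adjusted p = 5.71e-06 and 1.22e-05), and the neuropeptide gene Npy fell from 64.5 to 26.9 CPM. Ackr3 stood at 2.59%, 2.76%, 2.74% and 2.60% of that sum in controls 1 to 4 and at 2.46%, 2.62%, 2.73% and 2.59% in Upf2cKO 1 to 4. The groups overlapped. Cxcr4 stood at 4.62% to 4.93% of the sum in controls and at 3.73% to 3.89% in mutants, lower with no overlap.

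Cajal-Retzius cells, the surface neurons that secrete reelin and carry Cxcr4, had 6 of 10 markers higher and 1 lower, with a median log2 change of 0.38. The summed level was 546.3 to 587 CPM in controls and 596.5 to 735.4 CPM in mutants, mostly from Reln, which interneurons also express and which did not pass the test (411 ± 16.1 and 452 ± 49.0 CPM, limma adjusted p = 0.119). The transcription factor Trp73 rose from 13.2 to 19.6 CPM and Ndnf from 58.5 to 73.8 CPM. Cxcr4 was 6.93 ± 0.450% of the sum in controls and 6.98 ± 0.423% in mutants (SD, n = 4), with overlapping groups, while Ackr3 went from 3.71% to 4.05% in controls to 4.39% to 4.98% in mutants. Microglia, which can carry Cxcr4, had 10 of 12 markers higher, with a median log2 change of 1.54 and sums of 63.4 to 89.9 CPM in controls and 161 to 234.5 CPM in mutants. The 2 markers that did not pass had lower means in mutants than in controls. Csf1r, the receptor that microglia need to survive, rose from 13.2 to 30.3 CPM and Cx3cr1, the fractalkine receptor, from 9.95 to 30.2 CPM. The part of these cells in the rise of Cxcr4 and Ackr3 was not tested.

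Among the sources of the ligand, endothelial markers fell. Of 18, 14 were lower and 4 did not pass, with a median log2 change of -0.29 and sums of 303.4 to 327 CPM in controls and 235.4 to 261.4 CPM in mutants. The glucose transporter Slc2a1 fell from 51.3 to 40.2 CPM, the growth factor receptor Kdr from 43.4 to 32.98 CPM and the tight junction gene Cldn5 from 37.7 to 27.1 CPM. Cxcl12 stood at 12.2% to 15.2% of the endothelial sum in controls and at 12.1% to 15.8% in mutants, so the groups overlapped over nearly their whole range. Set against the same sum, Cxcr4 went from 12.7 ± 0.551% to 18.3 ± 1.54% and Ackr3 from 7.19 ± 0.226% to 12.5 ± 1.06% (SD, n = 4). For the receptors the groups could not overlap, because each receptor was higher and the sum lower in every mutant than in any control.

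Meningeal fibroblast markers, which stand for the main source of Cxcl12, were low and mixed. Of 16 listed, 13 were tested, with 2 higher and 5 lower, a median log2 change of -0.058 and overlapping sums of 99.8 to 116.8 CPM and 95.4 to 106.6 CPM. Pdgfra, which oligodendrocyte precursors also express, and Zic1 made up most of that sum. Zic1 fell from 27.6 to 20.8 CPM and Dcn, the gene of decorin, rose from 2.63 to 9.42 CPM. The value of Pdgfra went from 53.3 to 46.0 CPM (limma adjusted p = 0.0411) and passed in 8 of 18 alternative settings. Col1a1, a defining collagen gene, was at 0.688 ± 0.223 and 0.680 ± 0.229 CPM (limma adjusted p = 0.966). Cxcl12 was 38.3 ± 2.33% of the sum in controls and 33.6 ± 2.51% in mutants (SD, n = 4), with overlap. That overlap rests on Pdgfra, the largest part of the sum. Relative to the sum without Pdgfra, Cxcl12 was lower in every mutant than in any control. Foxc1, a meningeal factor that Cxcl12 expression depends on there, had 1.93 ± 0.308 and 1.84 ± 0.191 CPM (limma adjusted p = 0.725).

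Pericyte and mural markers had 3 of 10 lower and 1 higher, beside 26.3% lower and 36.7% higher over all tested genes. Cxcl12 was 18.3% to 21.2% of the marker sum of 206.9 to 221.1 CPM in controls and 16.5% to 19.9% of 178.5 to 204.3 CPM in mutants. Rgs5 fell from 93.1 to 75.1 CPM (limma adjusted p = 0.0103, lost on TPM), Abcc9 had 24.0 and 22.6 CPM (limma adjusted p = 0.125), and the smooth muscle gene Myh11 rose from 0.473 to 1.59 CPM. Intermediate progenitors, a source of Cxcl12 inside the Emx1 lineage, had 4 of 9 markers lower and 1 higher. Their sums were 547.2 to 599.9 CPM in controls and 442.1 to 520 CPM in mutants. Relative to that sum too, Cxcl12 overlapped between the groups, as it did for endothelial markers. Eomes, their defining transcription factor, fell from 94.2 ± 10.8 to 47.1 ± 6.08 CPM (SD, n = 4, limma adjusted p = 1.1e-05), Gadd45g rose from 9.55 to 34.6 CPM, and Elavl2 had 233.5 and 214 CPM. No listed marker of these cell types was at 0 in all libraries. The part of each cell type in the fall of Cxcl12 was not tested.

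**Figure D3:**
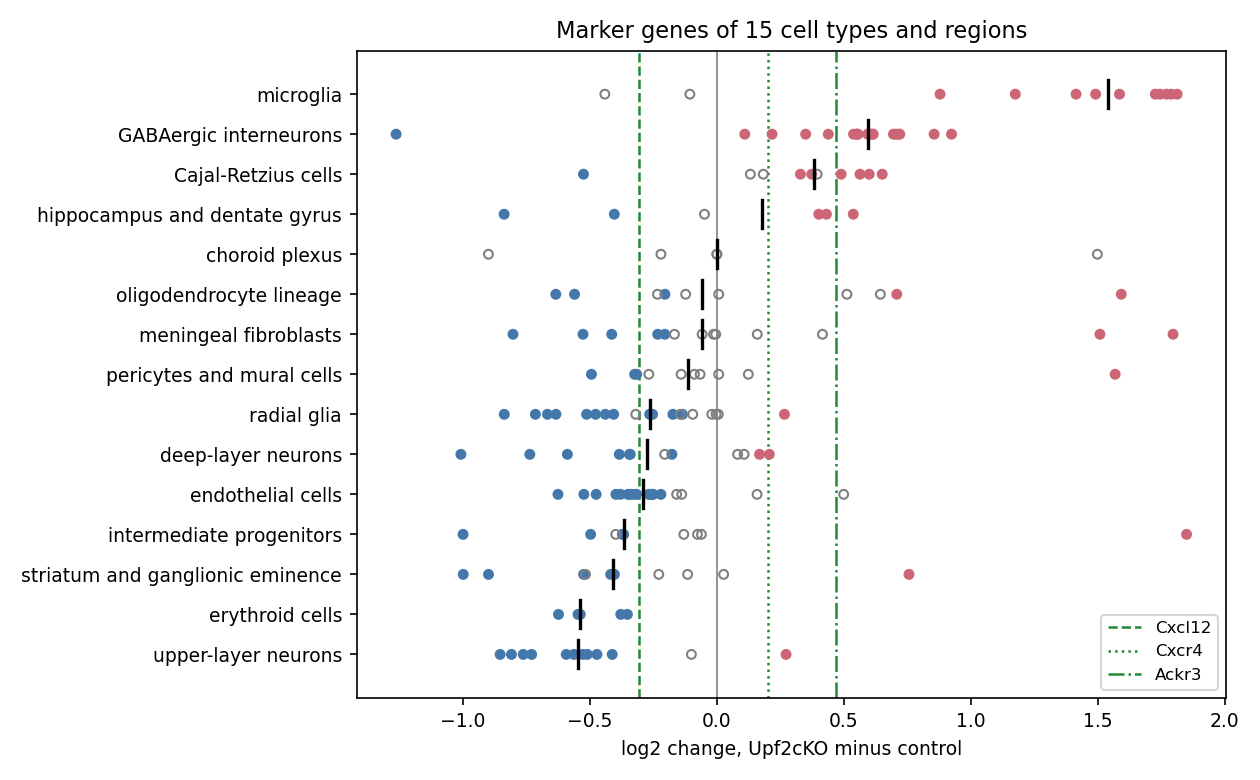
Log2 change, Upf2cKO minus control (horizontal axis), of each tested marker gene of 15 cell types and regions (rows, ordered by their median, black bars), with red points called higher, blue points called lower and open points not called. Green lines mark Cxcl12 at -0.31, Cxcr4 at 0.20 and Ackr3 at 0.47, beside medians of 0.59 for interneurons and -0.29 for endothelial cells.

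**Figure D4:**
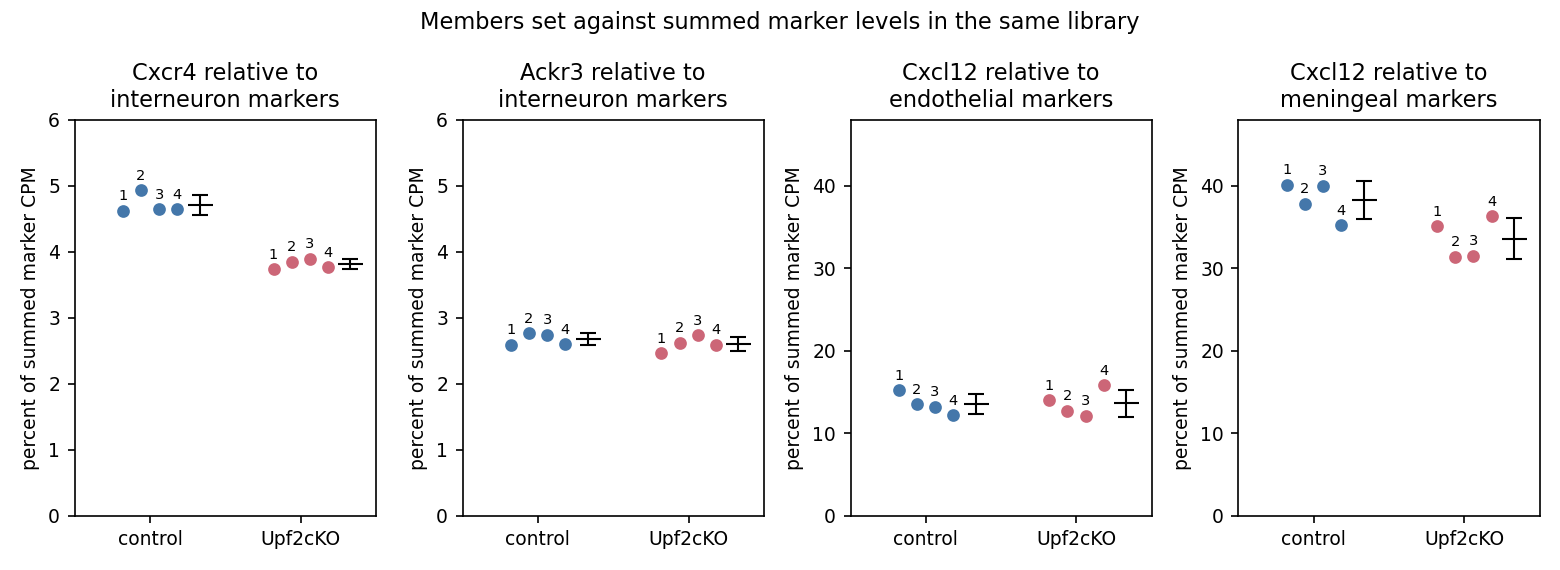
Level of a member as percent of the summed CPM of marker genes in the same library (vertical axes, from 0), for the 4 control and 4 Upf2cKO libraries, numbered by replicate, with mean and SD beside the points. Cxcr4 relative to interneuron markers is lower in mutants (3.81% against 4.71%). Ackr3 relative to interneuron markers and Cxcl12 relative to endothelial or meningeal markers overlap between groups. The meningeal sum includes Pdgfra, without which Cxcl12 is lower in every mutant than in any control.

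Genes around the axis were described by list, in the order of their roles. The counts in each list are to be read against the 36.7% of all tested genes called higher and the 26.3% called lower. Of the 10 tested genes for alternative ligands and modifiers of Cxcl12, 5 were lower, 1 was higher and 4 did not pass (median log2 change -0.33). Mif, a cytokine that also binds Cxcr4, fell from 192.6 ± 18.52 to 129.3 ± 9.61 CPM, and Hmgb1, which forms a complex with Cxcl12, fell from 594.4 ± 19.4 to 437.4 ± 32.5 CPM (SD, n = 4, limma adjusted p = 5.79e-05 and 3.94e-05). Ramp2 and Ramp3, partners of the adrenomedullin receptor, fell from 12.1 to 8.17 CPM and from 6.79 to 4.66 CPM. Adrenomedullin itself, a peptide that Ackr3 also scavenges, fell from 1.62 ± 0.0974 to 1.11 ± 0.273 CPM (Adm, limma adjusted p = 0.0136). Dpp4, the protease that clips and inactivates Cxcl12, had 1.92 ± 0.167 and 1.91 ± 0.0954 CPM (limma adjusted p = 0.982).

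Most other chemokines were near the detection limit. Of 34 other ligands, 9 were tested, of which 6 were higher and 3 did not pass (median log2 change 0.75). Ccl6, expressed by microglia, rose from 0.688 to 3.86 CPM, Ccl25 from 9.50 to 16.4 CPM, the membrane-bound Cxcl16 from 2.62 to 5.15 CPM and Cxcl14 from 5.56 to 8.85 CPM. The neuronal ligand Cx3cl1 had 29.2 ± 4.74 and 27.4 ± 17.1 CPM (limma adjusted p = 0.502), with 52.9 CPM in Upf2cKO 1. Without that library it was lower (log2 change -0.61) and passed. Cxcl11, the other chemokine that Ackr3 binds, reached at most 0.020 CPM and was not tested. Of 21 other chemokine receptors, 6 were tested, with 4 higher and 1 lower. Of the 4, Ccr9 had 0.05 to 0.22 CPM in controls and 0.60 to 0.83 CPM in mutants and passed the filter on low values only through the mutants. Without it 3 of 5 were higher. Of the other atypical receptors, Ackr1 rose from 15.6 ± 0.458 to 18.1 ± 1.51 CPM and Ackr2 fell from 3.85 ± 0.505 to 3.02 ± 0.218 CPM (SD, n = 4, limma adjusted p = 0.0170 and 0.0213). The call for Ackr1 was lost in 3 of 18 alternative settings and that for Ackr2 in 4.

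Below the receptor, 8 of 28 signalling genes were higher and 11 lower (median log2 change -0.080), beside 36.7% and 26.3% of all tested genes. The general subunit Gnb1, which helps form the G protein that Cxcr4 activates, fell from 960.8 ± 19.97 to 758.5 ± 19.4 CPM, and the kinase Jak2 rose from 123.9 ± 7.99 to 192 ± 12.3 CPM (SD, n = 4, limma adjusted p = 2.16e-05 and 4.43e-06). The phospholipase Plcb3 rose from 17.9 to 44.9 CPM. Dock2 and Rac2, which blood cells and microglia use to move, rose from 1.10 to 3.43 CPM and from 0.880 to 3.96 CPM. Genes that desensitise, recycle or degrade chemokine receptors were mixed, with 5 of 21 higher and 6 lower. The recycling GTPase Rab4a rose from 30.0 to 53.7 CPM, the G protein regulator Rgs16 from 14.4 to 34.1 CPM and the endosomal deubiquitinase Stambp from 43.8 to 77.8 CPM. The recycling GTPase Rab11a fell from 162.4 to 112.2 CPM, and the late endosomal Rab7 had 202.5 and 189.5 CPM (limma adjusted p = 0.0682). The number of lower signalling genes was 7 on TPM and 15 after centring on the median gene, and that of lower desensitisation genes was 3 and 11.

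Heparan sulphate holds Cxcl12 on cell surfaces and in the matrix. Of 29 genes of its synthesis and its carrier proteins, 6 were higher and 15 lower (median log2 change -0.15). The sulphotransferases Hs3st4 and Hs6st2 fell from 86.4 to 51.9 CPM and from 151.6 to 96.3 CPM, Ndst3 rose from 15.6 to 41.1 CPM, and the syndecans Sdc1 and Sdc3 fell from 26.1 to 18.6 CPM and from 434.6 to 353.3 CPM. Of 15 transcription factors linked to the axis, 10 were higher and 2 lower (median log2 change 0.27), and 7 of the 15 are also interneuron markers. Runx1 passed the filter on low values only through the mutants, and without it 9 of 14 were higher. Lhx6, which medial ganglionic interneurons need to express Cxcr4 and Ackr3, rose from 84.5 ± 3.15 to 137.3 ± 13.1 CPM (SD, n = 4, limma adjusted p = 4.23e-06), and Maf rose from 63.8 to 93.8 CPM. Satb1, which interneurons and upper-layer neurons share, fell from 193.8 to 134.2 CPM.

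**Figure D5:**
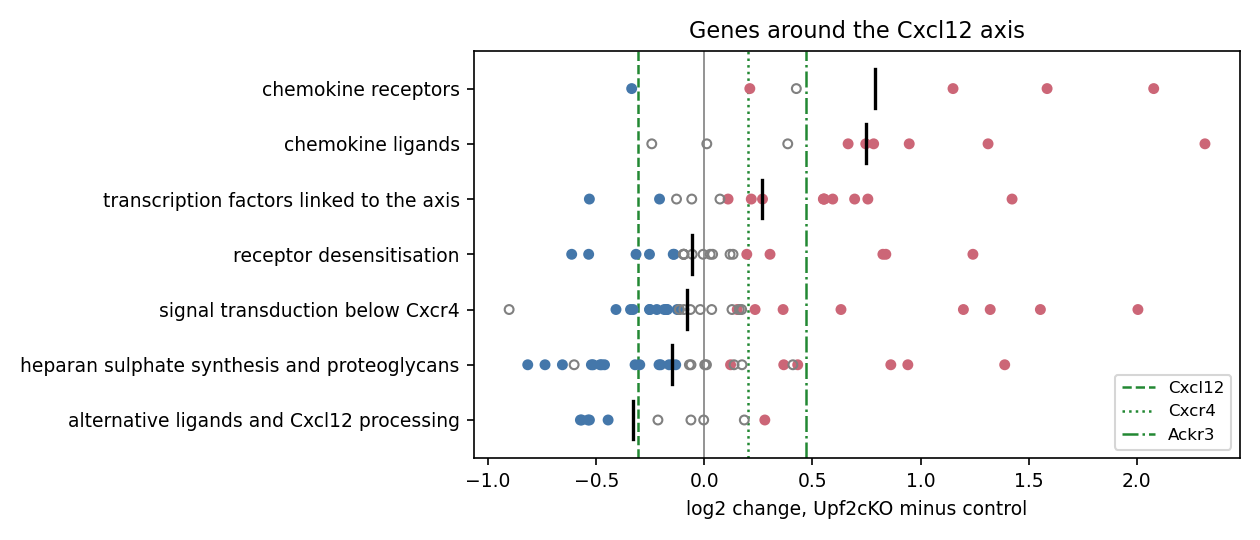
Log2 change, Upf2cKO minus control (horizontal axis), of each tested gene in 7 lists around the Cxcl12 axis (rows, ordered by their median, black bars), with red points called higher, blue points called lower and open points not called. Green lines mark the members, and the alternative ligands have the lowest median (-0.33), close to Cxcl12 at -0.31.

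The genes whose pattern over the 8 libraries was most like that of each member were found among 12825 protein-coding genes by the root mean square difference of their log2 values, each relative to its own control mean. Nearest to Cxcl12 were Vkorc1l1, Selenot, Rab6a and Foxn2, at differences of 0.045 to 0.049. Cxcr4 had Glb1, Fbxo9, Nudt9 and Slc16a14 at 0.034 to 0.043, and Ackr3 had Nt5c2, Alg13, Tatdn2 and Ankrd13a at 0.033 to 0.041. None of these 12 genes is a chemokine, a chemokine receptor or a listed marker. Such genes are few among the 12825 compared, so their absence says nothing about the members.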

How the data were processed

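The authors deposited CPM and TPM in separate tables of 55487 genes by Ensembl identifier and 8 library columns, to 2 decimals. The deposited CPM are shares of gene-assigned reads, and the deposited TPM are also divided by gene length: for 98.0% of 7502 genes the ratio of the tables matched the GENCODE M21 union exon length within 1%. Tools named in the submitters' processing notes, without roles, are STAR 2.7.11a, fastp 0.23.4, DESeq2, MultiQC 1.25 and Picard 3.1.1, with the build mm10. The read counter and strand setting were not given in the sources used here. Per the labels' protocols, 2 µg of total RNA with a RIN of at least 9.0 entered a stranded total RNA kit, although the molecule is labelled polyA RNA, which leaves the selection uncertain.

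Depth was estimated from steps between low TPM values of short single-exon genes, which came out whole within 0.15 reads (100.0% in each library). Rounding hides single reads in the CPM, so no count test was run. A gene was tested if 4 or more libraries had at least 0.5 CPM. The test was limma 3.58.1 in R 4.3.3 on log2(CPM + 0.1), with an intensity trend and Benjamini-Hochberg adjustment over 16573 genes (threshold 0.05), a scale that understates changes of low genes. The fit was tested on simulated data in which few genes changed, so the effect of library scaling was not tested there. Symbols matched 55227 identifiers.

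Members, lists and alternatives were chosen with earlier results of these data known, so no list was tested. The lists were chemokine ligands, chemokine receptors, alternative ligands and Cxcl12 processing, signal transduction below Cxcr4, receptor desensitisation, heparan sulphate, transcription factors, and markers of 15 cell types and regions. Named from each pathway list were up to 4 called genes with the smallest adjusted p and the most abundant by TPM, and from the marker lists described the 2 most abundant and the called gene with the smallest adjusted p; 1 gene that this rule takes is not reported here. Outside that rule, Adm, Dpp4, Cxcl11, Col1a1 and Foxc1 were picked once their values were known. Single values and ratios were compared by exact permutation tests over 70 arrangements.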

Additional observations from a re-analysis of the deposited data

Results flagged for a closer look

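Of 184 groups of 4 values, 20 had a library far from the other 3, where chance gives about 1 in 20. Among the members, Cxcl12 had 46.9 CPM (46.87) in control 1, with the next control at 41.1 CPM, and it was also the highest control on TPM (22.94, with the next at 19.77). Control 1 also had the most Camk2a of the controls (96.7 CPM) and their highest oligodendrocyte lineage sum (295.4 CPM, against 197.8 to 232.9 CPM). Whether this bears on its Cxcl12 was not tested. The CPM ratio of Cxcr4 to Ackr3 was 1.69 in control 3, with the nearest control at 1.78, and Cxcr4 was 4.93% of the summed interneuron markers in control 2, with the nearest at 4.64%.

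Several values set Upf2cKO 1 apart. It had 339 CPM of Camk2a, 606.2 CPM of summed oligodendrocyte lineage markers (the next mutant had 203.9), 340.0 CPM of hippocampal markers, 82.0 CPM of erythroid markers, 52.9 CPM of Cx3cl1, 3.89 CPM of Dock2, 5.86 CPM of Rac2 and 45.7 CPM of Hs3st4. Cxcl12 in that library (36.7 CPM), Cxcr4 (45.3 CPM) and Ackr3 (29.9 CPM) lay inside the range of the other mutants for Cxcl12, Cxcr4 and Ackr3.

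Upf2cKO 4 had 258 CPM of Ttr and 297.2 CPM of summed choroid plexus markers, against 31.1 CPM in the next mutant. It had the highest Cxcl12 of the mutants, whereas control 4, with the most Ttr of the controls (119 CPM), had their lowest Cxcl12 (39.89 CPM). Whether choroid plexus transcripts bear on Cxcl12 was not tested. Upf2cKO 3 had the lowest interneuron sum of the mutants, 1088 CPM, and 37.7 CPM of Gadd45g. Upf2cKO 2 had 169.4 CPM of striatal markers. In controls, Ccr9 reached 0.22 CPM in control 2, Rgs16 15.7 CPM and Sdc1 27.4 CPM in control 4, and Csf1r 11.3 CPM in control 3.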

How the results depend on the processing

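Ackr3 kept its direction and call in 18 of 18 alternatives (log2 change 0.354 to 0.53), and Cxcl12 and Cxcr4 kept theirs in 17 each, Cxcl12 failing on TPM (-0.245, limma adjusted p = 0.0608) and Cxcr4 after centring on the median gene (0.0887, limma adjusted p = 0.160); the cause was not tested. Leaving out each library in turn gave -0.372 to -0.25 for Cxcl12, 0.171 to 0.236 for Cxcr4 and 0.448 to 0.487 for Ackr3. The ratios had log2 differences of -0.285 to -0.252 (Cxcr4 to Ackr3), -0.565 to -0.431 (Cxcl12 to Cxcr4) and -0.83 to -0.698 (Cxcl12 to Ackr3) with a library left out, where the smallest possible exact p is 0.0571, and -0.256, -0.602 and -0.858 without control 4 and Upf2cKO 4, where it is 0.1. The median log2 change of all genes was 0.040, 0.12 on TPM and -0.074 after centring. Of 16573 tested genes 6082 were higher and 4359 lower, and 4820 and 6199 after centring. On TPM the filter of 0.5 was applied to TPM and left 19986 genes, of which 7341 (36.7%) were higher and 3328 (16.7%) lower. Same-numbered deviations correlated at 0.423, 0.0519, 0.523 and 0.186 over genes. Pair 2 was not over the 0.1 asked of every pair, and control 2 was closest to Upf2cKO 3, so the numbers were not taken to pair the libraries. With the replicate block, Cxcl12 had -0.307 (limma adjusted p = 0.004), Cxcr4 0.203 (0.00322) and Ackr3 0.469 (3.95e-05), with 6126 genes higher and 4423 lower. Of 56 other named genes that were followed through the alternatives, 47 kept their call in every alternative run and 9 changed it. In these, 0 called genes changed direction. The count leaves out, among others, Upf2, Camk2a, Ttr, Col1a1, Runx1 and the genes nearest to the members. Among the 47, Dpp4 and Foxc1, which never passed, took both signs, and 5 genes of low level (Ccr9, Adm, Dpp4, Foxc1 and Myh11) were not tested under a 2 CPM filter, Ccr9 also not on TPM. That filter, and leaving out control 4 with Upf2cKO 4, each left 2 chemokine receptors higher in place of 4. Among the 9 are Rab7, Abcc9 and Elavl2, which passed as lower in 4, 2 and 3 alternatives, and Reln, which passed as higher on TPM. Genes under the 0.5 CPM filter, most chemokines among them, were not tested.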

Other observations

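The other marker lists gave these counts, beside 36.7% of all tested genes called higher and 26.3% called lower. In the upper-layer neuron list 10 of 12 genes fell and 1 rose, with a median log2 change of -0.55. Mef2c fell from 992 to 655.8 CPM, Pou3f3 from 758.9 to 434 CPM and Lmo4 from 227.4 to 125.8 CPM. Radial glia had 12 of 19 markers lower and 1 higher, and deep-layer neurons had 7 of 12 lower and 2 higher. The striatal list had 5 of 10 lower and 1 higher, the oligodendrocyte lineage 3 of 10 lower and 2 higher, and the hippocampal list 2 of 6 lower and 3 higher. All 5 tested erythroid genes were lower. Of 5 choroid plexus genes, limma called 0, and 1 had an unadjusted p under 0.05.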
